A study of Mus musculus with 12 samples.

Results

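This report is about the OCT4 and YY1 peaks at 6 promoters of the mouse X chromosome, those of Rpgr, Gm6787, Rbm3os, Gpkow, Rps6ka3 and Wdr13. The set was selected on OCT4 ratios of day 0 and day 6, as promoters where OCT4 was kept or rose on the chromosome that Xist silences. Wdr13 has no OCT4 ratio, so that reason cannot apply to it, and why it was listed is not known. A peak was taken when it lay within 5 kb of a transcription start of a listed gene, from the RefSeq annotation of mm10 (GRCm38). This gave 6 of the 1006 OCT4 peaks with allelic values and 6 of the 211 YY1 peaks, 12 of 1217 in all.

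The material was the iXist-ChrX-Cast line of mouse embryonic stem cells, an interspecific XX line in which doxycycline switches on Xist from the castaneus X chromosome alone. By the labels all groups share this line, which the study grew in serum with LIF. Chromatin was taken on day 0, without doxycycline, and on day 6, with 1 µg/ml of it, and immunoprecipitated for OCT4 (antibody clone C3OA3C1) or YY1 (clone D5D9Z), with 2 libraries of each kind per day. By the study's methods the OCT4 and YY1 libraries came from shared chromatin extracts, so the 2 factors are not independent samples of the cells. The YY1 day 0 labels name no antibody, so the factor of those libraries was read from their titles. The unit throughout is the allelic ratio, the fraction of fragments told apart by strain that came from the Xist-bearing chromosome, Xi/(Xi + Xa). A ratio of 0.5 means equal recovery from both chromosomes, and a change is the day 6 mean minus the day 0 mean. The tables give no fragments per peak, so the depth behind a single ratio is unknown and no counting interval can be set. They give no expression either, so the cell type could not be checked against markers. No source used here says whether the libraries of a group came from separate cultures, and p-values measure only the spread between them, which may be technical.

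OCT4 is a POU-family factor of pluripotent cells that binds the octamer sequence, often at distal enhancers together with SOX2. YY1 is a ubiquitous zinc-finger factor that binds a short motif around an ATGG core, often close to the start of housekeeping genes. In X inactivation, Xist RNA coats one X chromosome, its genes are silenced and most regulatory elements on it lose bound factors, while a few genes escape.

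The sequences shown are the matches to the YY1 motif, because most of the listed promoters have one. The YY1 core searched was AANATGGC on both strands, and over the whole peak it was found in 5 of the 6 YY1 peaks, against 76.8% of all 211 YY1 peaks and 67.9% of those within 500 bp of a start, so that the listed peaks were close to the background. Each site is shown 5′ to 3′ on the strand of the match, from the GRCm38 reference of C57BL/6J and not from the strains of these cells. The capitals mark the core, except in the last line, where they mark a GC box (GGGCGG), since the Rpgr peaks hold no YY1 core.
Gpkow, chrX:7697212-7697241, plus strand: tgactcgagcgAAGATGGCgggccgtgaga
Gm6787, chrX:8096648-8096677, minus strand: tggaacgtcccAAGATGGCcgccctccgca
Wdr13, chrX:8132799-8132828, plus strand: aagctccaggcAAGATGGCtgcctgcaacg
Rbm3os, chrX:8145351-8145380, plus strand: ccccgcagaacAAGATGGCggcggtcacgt
Rps6ka3, chrX:159255722-159255751, minus strand: cttccgctcacAACATGGCgtctaagcgat
Rpgr, chrX:10216480-10216509, minus strand: gggtccgcgggcGGGCGGgcgggcgacagg

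In 4 of these 5 YY1 sites the 8 core letters were the same, AAGATGGC, and at Rps6ka3 the core was AACATGGC. At Gpkow the ATG of the core was the annotated translation start of the gene, 92 bp downstream of its transcription start. At Wdr13 the core lay 33 bp inside the gene on the opposite strand, at Rbm3os and Gm6787 it lay upstream of the start, and at Rps6ka3 it lay between annotated starts. The YY1 core was in 67.8% of all 211 YY1 peaks when the 300 bases around the peak centre were read, and in 4 of the 6 listed YY1 peaks, since the Wdr13 site is 248 bp from the centre of its peak. Of the 300-base RefSeq promoters of the genome, 6.04% hold it.

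The OCT4 peaks at the listed promoters held the YY1 core more often than the octamer, as did OCT4 peaks near any start and RefSeq promoters. In the same 300-base window, 3 of the 6 OCT4 peaks had the YY1 core (Gpkow, Gm6787 and Rbm3os), against 5.37% of all OCT4 peaks and 10.0% of OCT4 peaks within 500 bp of a start. Over the whole peak it was again 3 of 6, against 10.4% and 20.0%. All 3 overlap a YY1 peak, and 58.0% of YY1 peaks within 500 bp of a start hold the core in this window. The shares of OCT4 peaks are therefore not a like background for them. None of the 6 had an octamer, searched as ATGCAAAT or ATGCTAAT on both strands, against 14.7% of all OCT4 peaks, 3.33% of those near a start and 2.62% of RefSeq promoters. The GC box was in 3 of 6 (Gm6787, Rbm3os and Rpgr), against 16.2% of all OCT4 peaks and 60.0% of those near a start. At Rpgr it occurred as 3 overlapping copies on the minus strand. The Gm6787 peak also had the palindromic NRF1 motif, found in 0.596% of all OCT4 peaks and 2.78% of those near a start. The ETS core CCGGAAG was in 1 of 6, at Rbm3os, against 3.68% of all OCT4 peaks and 10.6% of those near a start. The CRE, TGACGTCA, was in none of the 6, against 0.696% of all and 2.78% of those near a start. A match to letters is a description of the sequence and not evidence of a bound site, and a missing match says nothing about the factor. The listed OCT4 peaks had a median GC content of 61.8%, against 45.3% for all OCT4 peaks and 61.8% for those near a start.

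The OCT4 ratio at these peaks, which chose them, is given first as a description and without a test. Over all OCT4 peaks the median ratio went from 0.497 on day 0 to 0.339 on day 6, with a median change of -0.149. Over the 6 listed peaks it went from 0.467 to 0.516, with a median change of 0.0719. The day 6 mean was at or above the day 0 mean in 4 of the 6, against 7.16% of all OCT4 peaks, a share that the choice of the promoters sets and from which nothing is read. The name given to this set therefore holds in part only, since 2 of the 6 peaks had a lower mean on day 6 and Wdr13 had no OCT4 ratio at all. The sign of the median also rests on 1 library: without day 0 replicate 2 it was -0.00599. Day 0 replicate 1 was above replicate 2 at all 6 listed peaks, with a median gap of 0.0858, whereas it was above in 48.8% of the 1006 OCT4 peaks.

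**Figure D1:**
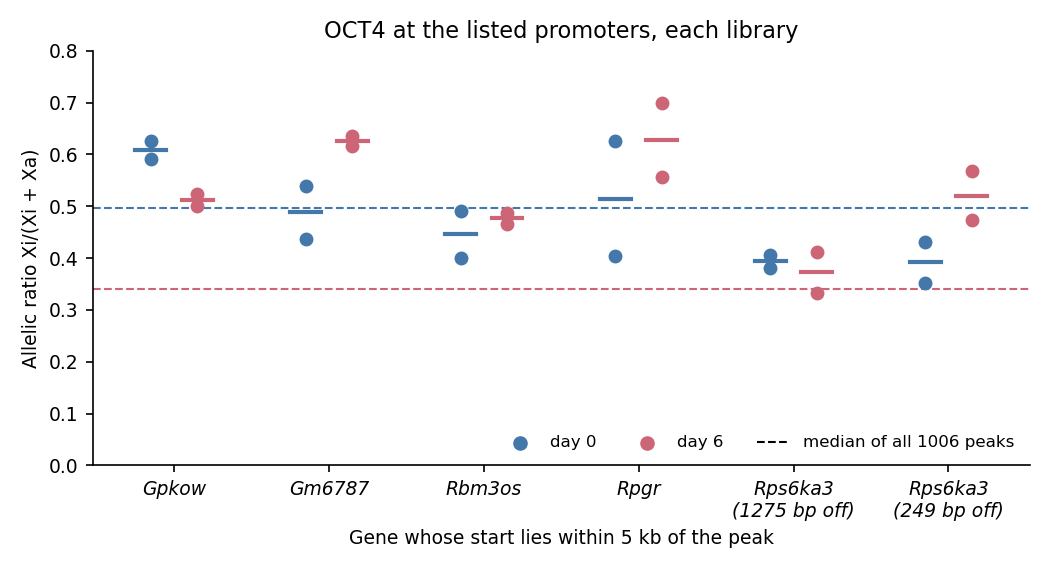
OCT4 allelic ratio (vertical axis, Xi/(Xi + Xa), no unit) at the 6 OCT4 peaks of the listed promoters. Each point is 1 library, the short bar is the mean of the 2 libraries of a day, and the dashed lines are the medians of all 1006 OCT4 peaks, 0.497 on day 0 and 0.339 on day 6. On day 6 the points of Gm6787 and of the nearer Rps6ka3 peak lie above both day 0 points, those of Gpkow lie below, and the other peaks overlap.

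Gm6787, a predicted gene with no annotated coding sequence, had the highest ranked change of the set. Its OCT4 peak (chrX:8096371-8096763, intergenic, 324 bp upstream of the start) had ratios of 0.538 and 0.438 on day 0 and of 0.615 and 0.636 on day 6. Both day 6 libraries were above both day 0 libraries, which held for 1.39% of all OCT4 peaks. The change was 0.138 (SE 0.0594), rank 3 of 1006 from the top.

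Rps6ka3 encodes RSK2, a serine/threonine kinase of the MAPK pathway, and had OCT4 ratios at a pair of upstream peaks. The nearer one (chrX:159255047-159255416, intergenic, 249 bp from the first start) had ratios of 0.432 and 0.351 on day 0 and of 0.568 and 0.474 on day 6. Again both day 6 libraries were above both day 0 libraries, with a change of 0.129 (SE 0.0620), rank 5. The farther peak (chrX:159254078-159254390, 1275 bp from the start) gave 0.406 and 0.381 on day 0 and 0.333 and 0.412 on day 6. There the days overlapped, with the lowest and the highest ratio both on day 6, and the change was -0.0211 (SE 0.0571), rank 111. Peaks of one promoter share their libraries and position and are not independent observations.

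Rpgr, the retinitis pigmentosa GTPase regulator of the photoreceptor cilium, had the widest spread between libraries. Its OCT4 peak (chrX:10216289-10216733, over a start, and within an intron of a longer RefSeq model) had ratios of 0.625 and 0.405 on day 0 and of 0.7 and 0.556 on day 6. The days overlapped, because day 0 replicate 1 was above day 6 replicate 2, and the day 0 libraries differed by 0.220 where the median gap over all OCT4 peaks was 0.0585. The change was 0.113 (SE 0.0871), rank 9.

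Rbm3os is a non-coding transcript that starts 453 bp from Rbm3, a cold-inducible RNA-binding protein gene on the opposite strand. Its OCT4 peak (chrX:8145216-8145783, over the start) had ratios of 0.491 and 0.400 on day 0 and of 0.488 and 0.465 on day 6. The day 6 libraries lay between the day 0 libraries, an overlap of days that was found at 25.6% of all OCT4 peaks, and the change was 0.0308 (SE 0.0583), rank 42. Since the ratio carries no strand, this peak cannot be ascribed to Rbm3os rather than to Rbm3.

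Gpkow, which encodes a G-patch protein of the spliceosome, went the other way. Its OCT4 peak (chrX:7697011-7697352, over the start and the first exon) had ratios of 0.625 and 0.591 on day 0 and of 0.500 and 0.524 on day 6. Both day 6 libraries were below both day 0 libraries, as at 73.0% of all OCT4 peaks, and the change was -0.0960 (SE 0.0539), rank 301. The day 0 mean of 0.608 and the day 6 mean of 0.512 were both above the medians of all OCT4 peaks, and the second was 84.2% of the first.

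Wdr13, a gene of the WD-repeat family, had no OCT4 ratio. The list of OCT4 consensus peaks holds 1 peak over its start (chrX:8132174-8133013), and this peak has no row in the allelic table. The same was seen at a further Gm6787 peak (chrX:8100952-8101329) and at another Rps6ka3 peak (chrX:159255870-159256317), whereas 47.0% of the 2139 OCT4 consensus peaks on X had ratios. No peak called in input lay within 100 kb of any listed start, the nearest being 118076 bp from Rps6ka3.

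The stated reason for the choice was OCT4, so YY1 at these promoters was tested, except that Wdr13 has only a YY1 ratio and may not be independent of YY1. YY1 ratios fell across the chromosome, from a median of 0.488 to 0.364, and 42.2% of the 211 YY1 peaks fell by limma with Benjamini-Hochberg adjusted p under 0.05, while 0.474% rose. Of the 6 listed YY1 peaks, 0 fell and 0 rose by this test, and 0 had an unadjusted p under 0.05, where 55.5% of all YY1 peaks fell at that unadjusted level. The day 6 mean was at or above the day 0 mean in 1 of the 6, against 10.4% of all YY1 peaks, and the days overlapped in 4 of the 6, against 23.7%. Without Wdr13, 0 of the 5 fell or rose and their median change was -0.0113. The median change of the 6 was -0.00984, against -0.0987 over all YY1 peaks and -0.137 over the other 75 YY1 peaks within 500 bp of a start, of which 37 fell. The 6 ranked from 16 to 52 of 211 by change from the top. The other promoters ran lower for the most part, with 64 of the 75 below the lowest listed peak. The promoters were listed with earlier results of these data known, so these counts are a description of the set. With 2 libraries against 2, an exact permutation test for a single peak cannot go below p = 0.333, and a p that misses the threshold does not show that YY1 was the same on both days.

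**Figure D2:**
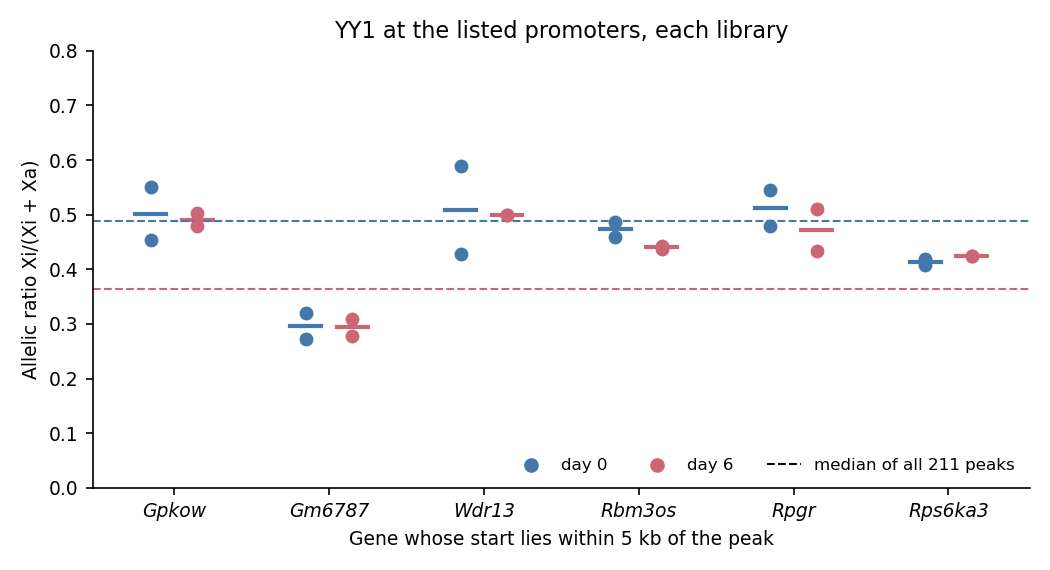
YY1 allelic ratio (vertical axis, Xi/(Xi + Xa), no unit) at the 6 YY1 peaks of the listed promoters. Each point is 1 library, the short bar is the mean of the 2 libraries of a day, and the dashed lines are the medians of all 211 YY1 peaks, 0.488 on day 0 and 0.364 on day 6. The points of day 0 and day 6 overlap at Gpkow, Gm6787, Wdr13 and Rpgr. Day 6 lies above day 0 at Rps6ka3 and below it at Rbm3os. The Gm6787 points lie below those of the other promoters on both days.

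At Rps6ka3 the YY1 peak (chrX:159255637-159256047, over the cluster of first starts) had the closest libraries, with 0.408 and 0.419 on day 0 and 0.424 and 0.425 on day 6. Both day 6 libraries were above both day 0 libraries, which held for 4.27% of YY1 peaks. The change was 0.0112 with a 95% interval of -0.0654 to 0.0879 that is not adjusted over peaks (limma with Benjamini-Hochberg adjusted p = 0.807). This interval does not reach the median change of all YY1 peaks.

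At Gm6787 the YY1 peak (chrX:8096400-8097058, 29 bp upstream of the start) had 0.273 and 0.320 on day 0 and 0.278 and 0.310 on day 6. The days overlapped, and the YY1 ratio was already below 0.5 in both day 0 libraries, before Xist was switched on. No input library has ratios, and a difference between the strains in binding or in mapping was not tested. The change was -0.00248 with an interval of -0.0894 to 0.0844, again short of the median of all YY1 peaks (limma with Benjamini-Hochberg adjusted p = 0.955). The OCT4 peak overlapping it by 364 bp had a day 0 mean of 0.488, where that of YY1 was 0.297, and on day 6 these means were 0.626 and 0.294. Every OCT4 library exceeded every YY1 library here. The tables of the 2 factors were made separately, and this gap was not tested.

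At Wdr13 the YY1 peak (chrX:8132124-8133008, over the start and the first exon) had 0.588 and 0.429 on day 0 and 0.500 in both day 6 libraries. The day 6 values lay between those of day 0. The change was -0.00840 with an interval of -0.147 to 0.130, wide enough to hold the median of all YY1 peaks, as were those of the Gpkow, Rpgr and Rbm3os peaks (limma with Benjamini-Hochberg adjusted p = 0.908). The OCT4 consensus peak without a ratio overlaps this YY1 peak by 835 bp.

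At Gpkow the YY1 peak (chrX:7697081-7697459, over the start and the first exon) had 0.453 and 0.551 on day 0 and 0.502 and 0.479 on day 6. The day 6 libraries lay between the day 0 libraries. The change was -0.0113 with an interval of -0.117 to 0.0943 (limma with Benjamini-Hochberg adjusted p = 0.854). OCT4 at the overlapping peak had a lower ratio in both day 6 libraries, so the 2 factors differed in their order here, though the difference between them was not tested.

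At Rpgr the YY1 peak (chrX:10216052-10216510, over a start and an untranslated exon) had 0.480 and 0.546 on day 0 and 0.510 and 0.434 on day 6. The days overlapped, with the lowest ratio on day 6, and OCT4 had its highest ratio on day 6. The change was -0.0412 with an interval of -0.147 to 0.0645 (limma with Benjamini-Hochberg adjusted p = 0.478).

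At Rbm3os the YY1 peak (chrX:8145082-8145611, over the start and reaching into the first intron of Rbm3) had 0.487 and 0.459 on day 0 and 0.443 and 0.437 on day 6. Both day 6 libraries were below both day 0 libraries, as at 72.0% of YY1 peaks. The change was -0.0331 with an interval of -0.112 to 0.0459 (limma with Benjamini-Hochberg adjusted p = 0.440). The order of the promoters by day 6 YY1 mean was Wdr13 at 0.500, Gpkow at 0.490, Rpgr at 0.472, Rbm3os at 0.440, Rps6ka3 at 0.425 and Gm6787 at 0.294. From Wdr13 to Rbm3os, neighbours in this order had overlapping libraries on day 0 and were not told apart by their spread. All Rbm3os libraries, the lowest at 0.437, were above those of Rps6ka3, the highest at 0.425. All Gm6787 libraries, the highest at 0.320, were below those of Rps6ka3, the lowest at 0.408.

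At 4 promoters an OCT4 peak with a ratio overlapped the YY1 peak, by 272 bp at Gpkow, 364 bp at Gm6787, 396 bp at Rbm3os and 222 bp at Rpgr. The centres of the paired peaks were 89 to 230 bp apart. At Rps6ka3 the nearer OCT4 peak ended 220 bp before the YY1 peak, and the OCT4 peak there without a ratio overlapped it by 178 bp. The 4 pairs can be set beside the other OCT4 peaks within 500 bp of a start that overlap a YY1 peak. Of those 38 peaks, 7 fell, 0 had a day 6 mean at or above the day 0 mean, and their median OCT4 change was -0.0989. OCT4 peaks that fell made up 35% of all OCT4 peaks by limma with Benjamini-Hochberg adjusted p under 0.05, and those that rose made up 0.0994%. Among promoters with both factors, 3 of the 4 listed pairs and none of the other 38 peaks had OCT4 at or above its day 0 mean. This contrast follows the way the set was chosen, and nothing is read from it. Outside the listed promoters, 15 of 137 OCT4 peaks within 500 bp of a start without a YY1 overlap also had it. So did 5 of 26 OCT4 peaks farther from a start that overlap a YY1 peak.

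**Figure D3:**
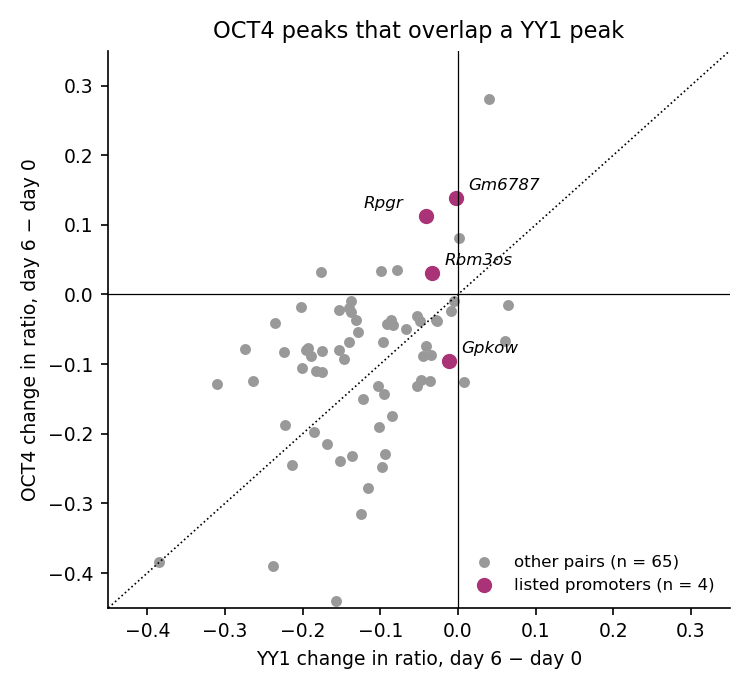
Change in Xi/(Xi + Xa), day 6 minus day 0 (no unit), of YY1 (horizontal axis) and OCT4 (vertical axis) at the 69 pairs of overlapping OCT4 and YY1 peaks. Each point is 1 pair, in colour for the 4 listed promoters, and the dotted line marks equal change. The listed pairs have YY1 changes from -0.0412 to -0.00248, and 3 of the 4 lie above an OCT4 change of 0.

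The promoters most like the 4 pairs were found among those 38 peaks by Euclidean distance over the 8 libraries to the median profile of the pairs. In order they were Kdm5c, a histone demethylase gene, at 0.151, then Usp9x, a deubiquitinase gene, at 0.195, Htatsf1 at 0.202, the chloride transporter gene Clcn5 at 0.249 and the kinase gene Cdk16 at 0.257. The listed pairs themselves were at 0.149 for Rbm3os, 0.162 for Rpgr, 0.199 for Gpkow and 0.373 for Gm6787. Their own median is the profile, so these distances cannot be compared with those of the other peaks. Even so, Gm6787 was farther from it than Txlng, which had rank 22 of those 38 peaks at 0.361. Kdm5c had an OCT4 change of -0.0500 and a YY1 change of -0.0664, and Usp9x of -0.0371 and -0.0277. None of these 4 changes passed the test (limma with Benjamini-Hochberg adjusted p of 0.544, 0.172, 0.636 and 0.535).

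The neighbouring OCT4 peaks were those more than 5 kb and at most 100 kb from a listed start, and there were 25. Of these, 3 fell and 0 rose, against 35% and 0.0994% of all OCT4 peaks, and 7 fell at an unadjusted p under 0.05, against 50.1%. Their median change was -0.0982, against -0.149 over all OCT4 peaks. A day 6 mean at or above the day 0 mean was found at 1 of the 25, against 7.16% of all OCT4 peaks. It was an intergenic peak near Tbc1d25 (chrX:8182717-8183716) with a change of 0.0206 (SE 0.0548), named after its value was seen. Both day 6 libraries were below both day 0 libraries at 16 of the 25, against 73.0% of all OCT4 peaks. The count that fell depends on single libraries: it was 0 without either day 0 library and 5 without day 6 replicate 1. No peak with a ratio lay between the listed peaks and these neighbours. The farthest OCT4 peak inside 5 kb was the farther Rps6ka3 peak at 1275 bp, and the nearest outside was in an intron of Tbc1d25 at 16601 bp, with 0.431 and 0.405 on day 0 and 0.348 and 0.254 on day 6. For YY1 these distances were 29 bp, at Gm6787, and 16988 bp, on the far side of Gpkow.

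**Figure D4:**
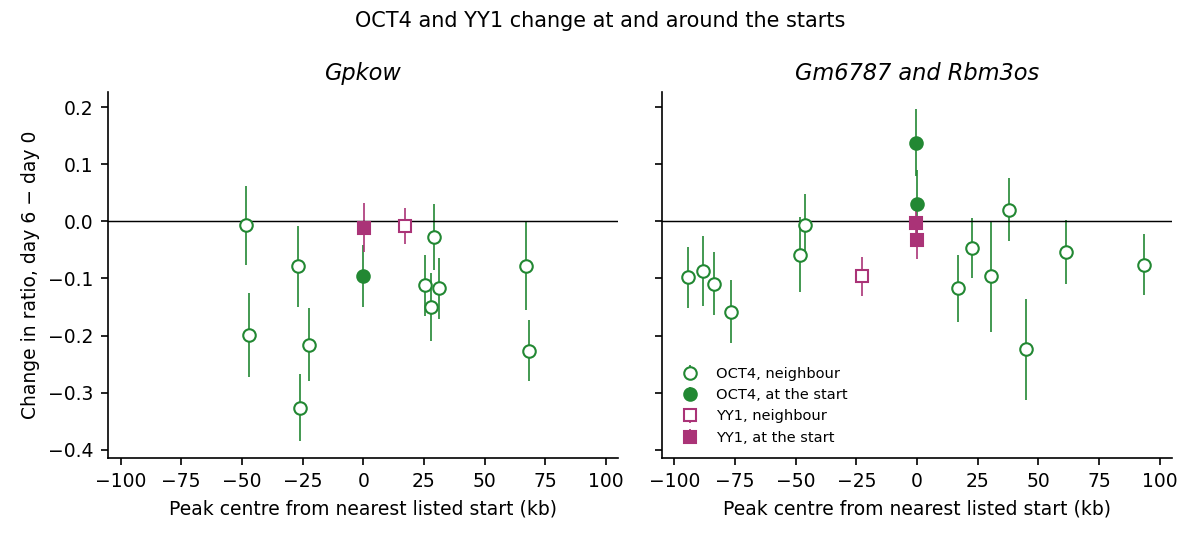
Change in Xi/(Xi + Xa), day 6 minus day 0 (vertical axis, no unit), of OCT4 and YY1 peaks around Gpkow, left, and Gm6787 and Rbm3os, right, against the distance of the peak centre from the nearest listed start (horizontal axis, kb). Points are peaks, filled at the listed starts and open for neighbours, and the bars are 1 SE from limma. Most neighbours lie below 0, with a median OCT4 change of -0.118 around Gpkow, while the filled OCT4 points of Gm6787 and Rbm3os lie above 0. Those filled points follow the way the promoters were chosen.

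Around Gpkow lay 11 OCT4 neighbours, all with a negative change, and the 3 that fell are among them. The peak in an untranslated exon of Plp2, a membrane proteolipid gene (chrX:7671037-7671502), had 0.571 and 0.667 on day 0 and 0.286 and 0.3 on day 6. It changed by -0.326 (SE 0.0586, limma with Benjamini-Hochberg adjusted p = 0.0163), with no overlap between the days. A peak in an intron of Tfe3, a bHLH transcription factor gene (chrX:7764801-7765989), had 0.607 and 0.621 on day 0 and 0.375 and 0.400 on day 6. It changed by -0.226 (SE 0.0533, limma with Benjamini-Hochberg adjusted p = 0.0239), also with no overlap. The nearest measured peak below Gpkow, in an untranslated exon of Magix (chrX:7674171-7675104, 22030 bp away), had 0.462 and 0.581 on day 0 and 0.333 and 0.278 on day 6. It changed by -0.216 (SE 0.0631, limma with Benjamini-Hochberg adjusted p = 0.0383). The nearest above, in Wdr45, an autophagy gene, changed by -0.112 (SE 0.0534) and did not pass. Of the 11 neighbours, 7 had a lower change than the Gpkow peak itself, which is at percentile 70.2 of all OCT4 peaks by change. YY1 at the intergenic peak 16988 bp from Gpkow had 0.346 and 0.352 on day 0 and 0.343 and 0.339 on day 6, a change of -0.00813 (limma with Benjamini-Hochberg adjusted p = 0.854).

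Gm6787, Wdr13 and Rbm3os lie together, and their 13 OCT4 neighbours were assigned to the nearest listed start, 6 to Gm6787 and 7 to Rbm3os. None of the 13 fell or rose. All 6 around Gm6787 had a lower change than the Gm6787 peak, from -0.158 to -0.00613, and all 7 around Rbm3os a lower one than the Rbm3os peak, from -0.224 to 0.0206. These 2 listed peaks were chosen on their OCT4 change and ranked 3 and 42 of 1006 from the top. That their neighbours were lower follows from the choice, and nothing is read from it. The intergenic peak nearest to Gm6787 on the low side (chrX:8050366-8051652) had 0.514 and 0.535 on day 0 and 0.524 and 0.513 on day 6, so that the days overlapped around 0.5. The YY1 peak on that side was at an untranslated exon of Suv39h1, which encodes an H3K9 methyltransferase, 22361 bp away (chrX:8074151-8074726), with 0.508 and 0.490 on day 0 and 0.379 and 0.427 on day 6. All its day 6 values were below those of day 0, with a change of -0.0965 (limma with Benjamini-Hochberg adjusted p = 0.0667) that did not pass.

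Rpgr and Rps6ka3 had few neighbours with ratios. Rpgr had none of either factor within 100 kb, where the OCT4 consensus list holds 2 peaks, its own and 1 without a ratio. Around Rps6ka3 that list holds 7 peaks, of which 4 have no ratio. For Rpgr the nearest measured OCT4 peaks on each side lay near Sytl5 and Tspan7. The peak near Sytl5, 232 kb from Rpgr, had a change of -0.167 (limma with Benjamini-Hochberg adjusted p = 0.0649). That near Tspan7, 387 kb from Rpgr, fell by 0.243 (limma with Benjamini-Hochberg adjusted p = 0.0211). Rps6ka3 had 1 neighbour with a ratio for each factor, at Eif1ax, a translation initiation factor gene. This neighbour is within 100 kb only of internal starts of Rps6ka3 and is 117 kb from the first start. On the other side the nearest OCT4 peak was 342 kb away, with a change of -0.0686 (SE 0.0562). OCT4 at the Eif1ax peak (chrX:159372215-159372865) had 0.680 and 0.455 on day 0 and 0.333 and 0.500 on day 6. The days overlapped there, with a change of -0.151 (SE 0.0907). YY1 at Eif1ax (chrX:159372165-159372855) had 0.528 and 0.511 on day 0 and 0.397 and 0.398 on day 6. It fell by 0.122 (SE 0.0313, limma with Benjamini-Hochberg adjusted p = 0.0269), the only one of the 3 YY1 neighbours to pass, and it did not pass without any 1 of the 4 YY1 libraries.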

How the data were processed

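The authors deposited fractions, Xi over Xi plus Xa, for each peak and library. By the methods of the study, Bowtie2 aligned the reads to mm10, SNPsplit assigned them to a parent, and MACS2 called peaks in each library, which were merged into a consensus and filtered on allelic reads and on a biallelic ratio at day 0. Versions in the submitters' processing notes are 3.5.0 for deepTools and 2.3.5.1 for Bowtie2. The filters remove peaks with few strain differences, and a ratio does not measure total occupancy. The study describes a YY1 consensus from anti-YY1 libraries of this line and its reciprocal, without naming these ratios.

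Each of the 8 allelic columns was matched to its library by the factor, day and replicate in its name. The OCT4 names also hold a clone name that is in no label, and no input library has ratios. For each factor, limma 3.58.1 in R 4.3.3 compared day 6 with day 0 at all peaks, 2 libraries against 2, in a two-sided test with no block and a Benjamini-Hochberg threshold of 0.05. The script was tested on simulated data. Sequences, starts and motifs came from GRCm38.p6 and RefSeq. An overlap is at least 1 bp. The members and lists were chosen with earlier results of these data known. Named peaks are every member, per gene the 2 largest falls and the largest rise past the threshold among neighbours, the nearest measured peak on each side, up to 4 called and 4 least changed peaks of each gene list, and the 5 pairs most like the members. Alternatives were the replicate block, logit and log2 scales, a trended robust prior, other windows, day 0 limits and thresholds, and leaving out each library.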

Additional observations from a re-analysis of the deposited data

How the results depend on the processing

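The median OCT4 change of the listed promoters, 0.0719, ran from -0.00599 to 0.123 when 1 library was left out, and was negative only without day 0 replicate 2. Counts moved most. OCT4 peaks that fell numbered 352, but 163 on a log2 scale, 0 at a threshold of 0.01 and 0 to 288 without 1 library. The 1 OCT4 peak that rose became 0 on a logit or log2 scale, with day 0 ratios limited to 0.3 to 0.7, or at 0.01, and 0 to 3 without 1 library. OCT4 neighbours that fell numbered 3, and 0 to 5 without 1 library. YY1 peaks that fell numbered 89, but 16 at 0.01 and 0 to 51 without 1 library. The 1 YY1 peak that rose became 0 on a logit or log2 scale, with the trended robust prior, or at 0.01, and 0 to 2 without 1 library. The 1 YY1 neighbour that fell became 0 within 50 kb and 0 whichever library was left out. The median YY1 neighbour change of -0.0965 was -0.0523 within 50 kb and -0.120 to -0.0725 without 1 library. The median of other OCT4 promoter peaks, -0.113, was -0.122 with a 1 kb window. Leaving out a library leaves 1 sample on one day, which is assumed to vary like the other day; the cause of these shifts was otherwise not tested. The median YY1 change of the listed promoters, -0.00984, ran from -0.0228 without day 0 replicate 1 to 0.00433 without day 0 replicate 2, where its sign turned, shifts within 1 SD of the libraries; it was -0.0113 without Wdr13, an alternative chosen after seeing the data. None of the 6 YY1 peaks passed the threshold in any. Same-numbered libraries did not deviate together over the peaks (correlation -0.0217 for OCT4, 0.0315 for YY1). This cannot show whether same-numbered libraries of the 2 days came from a shared culture, so a pairing stays possible. With the replicate block 274 OCT4 and 97 YY1 peaks fell, against 352 and 89 without it. So did 2 OCT4 neighbours and 1 YY1 neighbour. Limiting YY1 to a day 0 mean of 0.2 to 0.8, chosen after seeing the data, left 89 that fell.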

Other observations

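The genes around Gpkow, Wdr13 and Rbm3os form a dense cluster of the proximal X. A list of 33 of its genes was followed, of which 14 had an OCT4 peak within 5 kb, giving 21 peaks once the listed promoters were left out. Of these, 3 fell and 0 rose, against 35% and 0.0994% of all OCT4 peaks, with a median change of -0.112, and the 3 are the peaks at Plp2, Magix and Tfe3. The least changed were those at Hdac6, a cytoplasmic deacetylase gene, at -0.0114 (SE 0.0866), Praf2 at -0.0271 (SE 0.0575), Pqbp1, a splicing factor gene, at 0.0324 (SE 0.0574), and Porcn, a gene needed for Wnt secretion, at -0.0533 (SE 0.0556). The cluster had 1 YY1 peak outside the listed promoters, that of Suv39h1.

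A list of 12 mouse genes that are known to escape X inactivation gave 12 OCT4 peaks at 8 genes. None of them fell or rose by limma with Benjamini-Hochberg adjusted p under 0.05, against 35% that fell among all OCT4 peaks, and 1 fell at an unadjusted p under 0.05, against 50.1%. Their median OCT4 change was -0.0377, between that of the listed promoters and that of all OCT4 peaks. The least changed were at Uba1, a ubiquitin-activating enzyme gene, at -0.00405 (SE 0.0609) and -0.00670 (SE 0.0648), at Mid1 at -0.0132 (SE 0.0547), and at Usp9x at -0.0371 (SE 0.0616). A second Mid1 peak had a change of 0.0971 (SE 0.0547), from day 0 ratios of 0.731 and 0.766, and a Ddx3x peak one of 0.0798 (SE 0.0607). At 3 of the 12 peaks both day 6 libraries were below both day 0 libraries, against 73.0% of all OCT4 peaks. These were Kdm6a at -0.157 (SE 0.0539), another Usp9x peak at -0.133 (SE 0.0612) and Slc25a5 at -0.113 (SE 0.0717). The peaks in the last 3 sentences were named after their values were seen. The 5 YY1 peaks at these genes had a median change of -0.0277, with 0 that fell or rose and 0 at an unadjusted p under 0.05, against 42.2% and 55.5% of all YY1 peaks that fell at these levels. Their values were -0.0277 at Usp9x, -0.0265 and -0.0489 at Ddx3x, 0.0121 at Kdm6a and -0.0664 at Kdm5c. The YY1 changes of the listed promoters, from -0.0412 to 0.0112, overlap this range, and the difference between the sets was not tested.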
